A study of Mus musculus with 10 samples.

Results

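Fibronectin and 9 matricellular genes were followed in the skin of Tsk2 mice at 1 and 4 months of age. The genes were chosen by symbol and were Fn1, Postn, Tnc, Thbs1, Thbs2, Thbs3, Thbs4, Comp, Spp1 and Sparcl1. Of these 10, 9 had a probe with 1 gene symbol, among 19532 gene symbols with such a probe on the array. All 9 were tested together with the other genes measured in enough samples, 13501 in all. No probe of the annotation used here carried the symbol Spp1 (osteopontin), which was not analysed here.

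Tsk2 mice carry a tight-skin mutation, known to lie in the type III collagen gene Col3a1, and serve as a scleroderma model. The titles call the mice transgenic, whereas the genotype label reads Tsk2 and the design text Tsk2/+. Each age had 4 skin samples on 5 arrays, because 1-month sample 1 and 4-month sample 2 were each run on a pair of arrays, which were averaged. Skin RNA was labelled with Cy3 and hybridised against a reference RNA in Cy5. The labels call this reference UMR, and the meaning of that name was not stated. Strain, sex and skin site were not given in the sources used here, and no wild-type skin was analysed, so nothing below compares Tsk2 with normal skin. The comparison is between ages. The titles carry ID numbers, 2 at 1 month and 3 at 4 months, with none at both ages. At 1 month samples 1 and 2 share a number and samples 3 and 4 share another, and at 4 months samples 2 and 3 share a number. What the numbers stand for was not stated, so the p-values cover no more than the differences among these 8 samples, part of which may be technical.

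Matricellular proteins sit in the extracellular matrix without building its main fibres. They bind collagen, growth factors and cell surface receptors, and many are made at high levels during development and wound repair and at low levels in resting tissue. Fibronectin is itself a fibre-forming glycoprotein on which cells assemble other matrix components, and several matricellular proteins bind to it. In skin these proteins come mainly from fibroblasts, and in fibrotic skin several of them are known to be abundant.

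Promoters were available from RefSeq (GRCm38.p6) for Postn, Thbs2, Thbs3, Thbs4, Tnc and Spp1. Those of Postn and Tnc are shown because these were the 2 members with lower values at 4 months. Each line gives the 150 bases before the annotated start of transcription, read 5′ to 3′ on the gene's strand, and capitals mark the TATA box letters TATAAA.
Postn, chr3:54360957-54361106, plus strand: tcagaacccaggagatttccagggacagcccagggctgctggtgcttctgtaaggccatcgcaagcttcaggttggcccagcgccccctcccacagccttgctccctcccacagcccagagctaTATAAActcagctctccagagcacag
Tnc, chr4:64047016-64047165, minus strand: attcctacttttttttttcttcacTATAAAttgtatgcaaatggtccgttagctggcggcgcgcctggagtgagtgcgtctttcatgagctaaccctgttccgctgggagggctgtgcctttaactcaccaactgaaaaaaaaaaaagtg
In the Postn promoter the match lay at -26 to -21 from the start, and in the Tnc promoter at -126 to -121. Searched on both strands of the 250 bases before the start, the letters TATAAA were found in 12.4% of all 32851 promoters. They also lay in the windows of Thbs2 (-126 to -121, on the other strand) and Spp1 (-211 to -206), so 4 of the 6 genes had a match and it is not particular to Postn and Tnc. The AP-1 letters TGANTCA, found in 6.75% of all promoters, had no match in the windows of any of these 6 genes. A second annotated Postn start lies upstream, and no TATAAA was found in its window. A second Tnc start lies downstream, with TATAAA at -205 to -200. Close to that start its window also reads tatataag, letters that the search for TATAAA did not count. These windows are not shown, and for both genes the window shown is the one with the letters within its 150 bases. The 6 genes had 9 windows together, whereas 12.4% is a share of single promoters. A match describes the letters alone.

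Each value is the log2 of the skin signal over that of the reference, so that 1 unit is a doubling, and levels of different genes are not compared because each probe has its own scale. Neither the log base nor the numerator is stated with the deposited values. Log2 is likely because the largest value in size, 11.165, would be a ratio of 70615 as a natural logarithm, above the 65535 that a 16-bit scanner can record. The sign was turned so that positive reads as skin above reference, a likely direction: on 10 of 10 arrays the epidermis probes then had a median above 0 (3.95 to 5.76), as did the skeletal muscle probes (4.13 to 6.61), whereas the cell division probes were above 0 on 0 of 10 arrays, the B cell probes on 1 of 10 and the fibroblast probes on 8 of 10. An exact 0, found for 26.0% to 47.4% of an array's probes, was read as not measured.

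Before the members' values, 2 features of the arrays need stating, because results below rest on them. First, on each array between 45 and 63 exact values were each held by at least 50 probes and by at least 3 times as many probes as the neighbouring values, and 34.0% to 44.8% of an array's measured values were of this kind. Among the members' measured array values 47 of 159 were such shared values. They made up all 8 values of Comp, 8 of 9 and 7 of 8 values of Thbs1 probes A_52_P337086 and A_52_P337092, 1 of 10 of Thbs2, and every value of all Tnc probes except A_51_P291438. Fn1, Postn, Thbs3, Thbs4 and Sparcl1 had none. The members' shared values were held by 51 to 3382 probes of the array at once, and how they arose was not tested. Second, 4-month sample 4 often lay at the edge of its age. Of the 8 members measured in every sample it was the highest or the lowest of its age in 7, against 60.4% of the 12397 genes measured in every sample, a share that was higher in 1 other sample, 1-month sample 2 (67.3%, and 4 of 8 members). In the 2 samples run on a pair of arrays, the member probes measured on both differed by a median of 0.19 and 0.28, against 0.34 and 0.32 over all probes.

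No member passed the test between ages. With limma, adjusted by Benjamini-Hochberg over all 13501 genes, 0 of 9 members were below 0.05, where 979 genes (7.25%) were, 566 of them higher at 4 months and 413 lower. The members' adjusted p-values began at 0.100. At an unadjusted p under 0.05 there were 2 of 9 members, Postn and Thbs4, against 24.3% of all genes. Fitted values were lower at 4 months for 2 of 9 members, against 47.7% of all genes. This rests on the likely direction of the ratio, and with the sign the other way it would be 7 of 9 against 52.3%. The median fitted difference was 0.27 in the members and 0.03 over all genes. The ages did not overlap in 1 of 9 members, Postn, against 21.1% of all genes. Single probes gave the same count: 0 of 16 tested probes passed, against 5.33% of all 24317 probes. The members' standard errors of 0.33 to 0.49 on the log2 scale make the 95% intervals wide, and a p above the threshold does not show that a gene was the same at both ages. In whole skin, fewer cells of a type and less RNA per cell cannot be told apart.

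**Figure D1:**
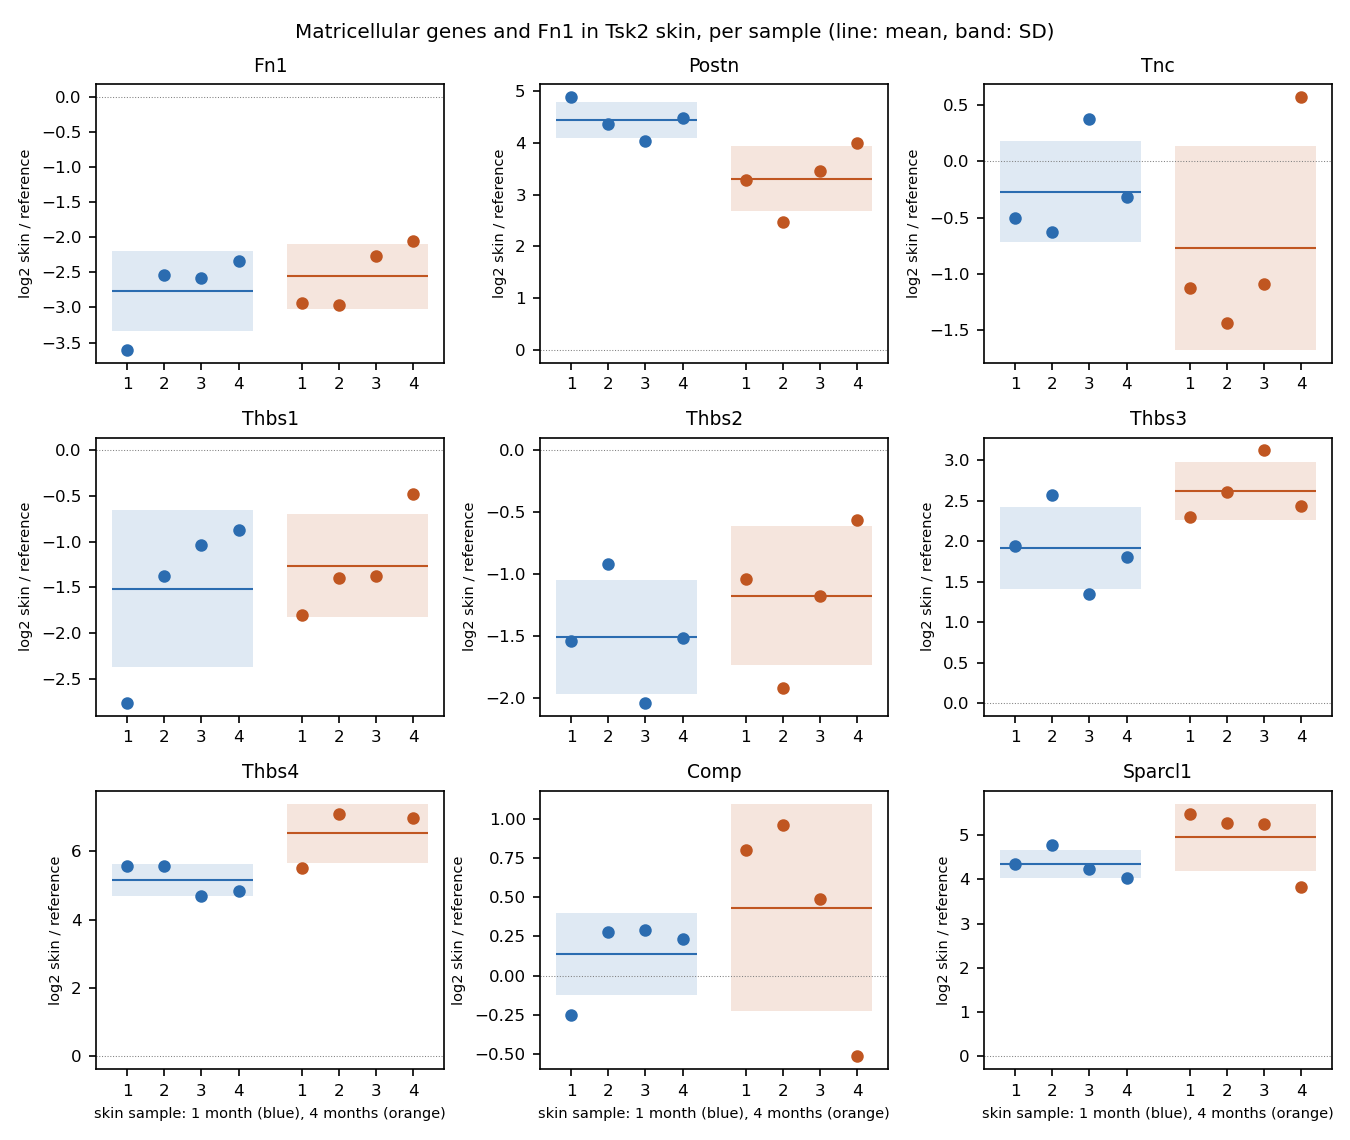
Log2 ratio of skin over reference (vertical axis, its own range in each panel) of 9 genes in each of 4 skin samples at 1 month (blue) and 4 at 4 months (orange), with the mean as a line and the SD as a band. The ages are separate for Postn alone, 4-month sample 4 lies apart from the other 4-month samples in Tnc and Sparcl1, and Thbs4 has no value in 4-month sample 3.

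Fn1 encodes fibronectin. It was below the reference in every sample, with log2 ratios of -3.61, -2.53, -2.58 and -2.33 in 1-month samples 1 to 4 and of -2.94, -2.97, -2.27 and -2.05 in 4-month samples 1 to 4. The ages overlapped widely, and the low value of 1-month sample 1 and the high value of 4-month sample 4 were the ends of the range. The means were -2.76 ± 0.57 and -2.56 ± 0.47 (SD, n = 4 each). The fitted difference, 4 months minus 1 month, was 0.21 ± 0.40 (SE; 95% interval -0.67 to 1.10; limma adjusted p = 0.799). Fitted differences here take the shared ID numbers into account and so depart a little from the difference of the means. Fn1 had 3 probes, with fitted differences of 0.48, 0.25 and -0.09. The last, A_52_P299974, read -4.02 in 1-month sample 1, where it was measured on 1 of the 2 arrays, and between -1.89 and -1.72 in the other 1-month samples. The fitted Fn1 difference was -0.053 without 1-month sample 1, so its sign rested on that sample, and over the other samples left out in turn it ran from 0.024 to 0.40.

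Postn encodes periostin, a fasciclin-domain protein that binds collagen and fibronectin and is made by fibroblasts of skin and periosteum. It was well above the reference throughout, at 4.88, 4.36, 4.03 and 4.47 in the 1-month samples and at 3.28, 2.48, 3.45 and 4.00 in the 4-month samples. Every 4-month sample was below every 1-month sample, by a gap of hardly any size between 1-month sample 3 and 4-month sample 4. The means were 4.44 ± 0.35 and 3.30 ± 0.63 (SD, n = 4 each). The fitted difference was -1.09 ± 0.38 (SE; 95% interval -1.95 to -0.23), which is 2.13-fold lower at 4 months, with an unadjusted p of 0.0178 and a limma adjusted p of 0.116. These values came from 1 probe, A_51_P489192, whose paired arrays read 4.81 and 4.95 in 1-month sample 1 and 2.39 and 2.56 in 4-month sample 2. The other Postn probe, A_51_P469817, was at 0 on every array. Postn passed the threshold in 4 of the other settings tried, among them without 4-month sample 4, where the difference was -1.36 (adjusted p = 0.0268). With exact zeros kept as values it was -0.55 (adjusted p = 0.196), the probe at 0 then entering the mean. Over the same samples the mean of 7 growing hair follicle genes was 1.90 to 2.43 at 1 month and -0.49 to 0.61 at 4 months, and that of 9 fibroblast genes was 1.34 to 2.36 and 1.15 to 2.01. The part of either in the Postn values was not tested.

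Tnc encodes tenascin-C, a hexameric glycoprotein of developing and healing tissue that weakens cell adhesion to fibronectin. Its probe free of shared values, A_51_P291438, read -0.57, -1.91, -0.13 and -0.18 in the 1-month samples and -3.03, -2.68, -2.49 and 0.54 in the 4-month samples. In 3 of the 4-month samples this probe was below all 1-month samples, whereas in 4-month sample 4 it was above all of them. Its fitted difference was -1.14 ± 0.81 (SE; 95% interval -2.94 to 0.67; limma adjusted p = 0.455 over all probes) with all samples. It was -2.05 ± 0.45 without 4-month sample 4 (adjusted p = 0.0209), -0.68 without 4-month sample 1 (adjusted p = 0.701) and -0.28 with the mean of 20 skeletal muscle genes as a covariate (adjusted p = 0.904). Averaged over its 3 tested probes, 2 of which carried shared values alone, the gene read -0.50, -0.63, 0.38 and -0.31 at 1 month and -1.12, -1.43, -1.09 and 0.57 at 4 months. Where a probe of this average was not measured, in 1-month sample 1 and 4-month sample 2, its value came from a fit of probe and sample. The gene's fitted difference was -0.43 ± 0.47 (SE; 95% interval -1.49 to 0.62; adjusted p = 0.634). Leaving out single samples moved it both ways, to -1.14 without 4-month sample 4 and to -0.069, -0.28 and -0.22 without 4-month sample 1, 4-month sample 2 and 1-month sample 3. The 3 tested probes were at -1.14, -0.33 and 0.27, and the sign of the last, A_52_P278035, was not stable: it was at -0.22 without 4-month sample 4, at -0.096 without 1-month sample 4 and at -0.091 with the second of the paired arrays. The other 2 of the 5 Tnc probes were measured in too few samples for a test.

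**Figure D2:**
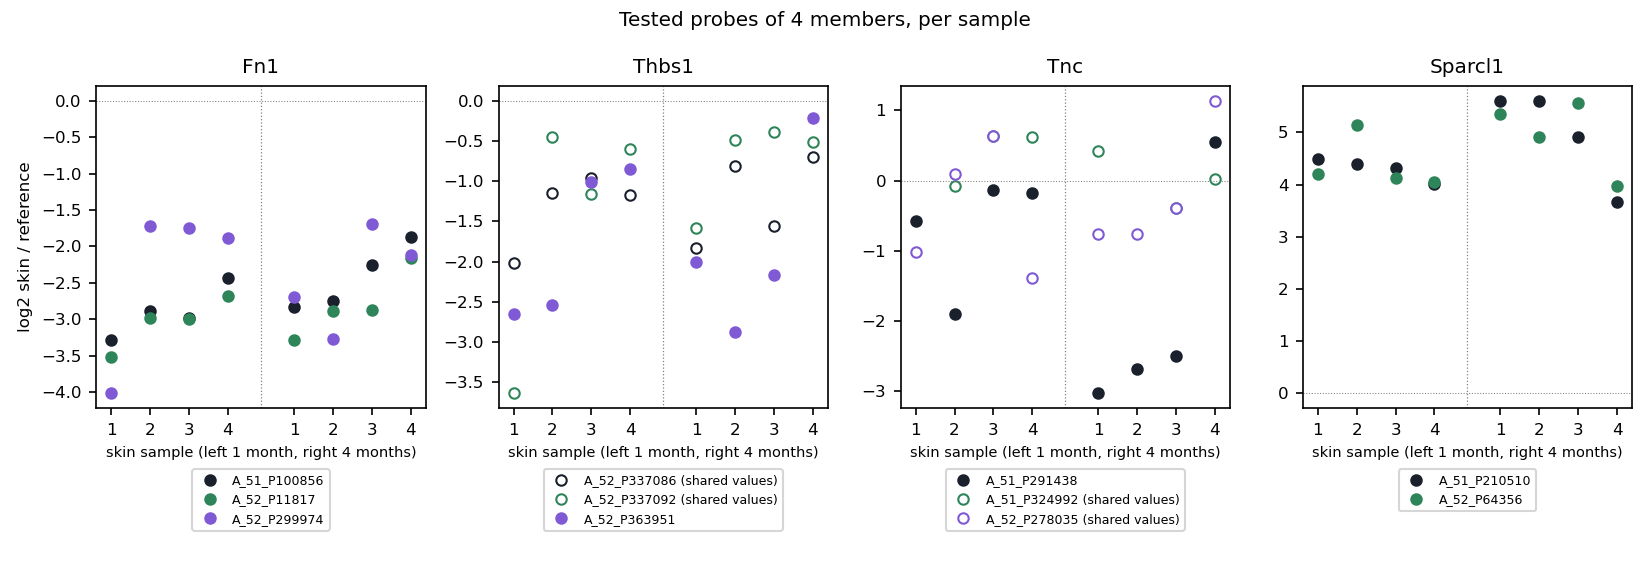
Log2 ratio of skin over reference (vertical axis, its own range in each panel) of each tested probe of Fn1, Thbs1, Tnc and Sparcl1 in the 8 skin samples, 1 month left and 4 months right of the dotted line. Open symbols are probes most or all of whose values are shared by many probes of the array, and the filled Tnc probe A_51_P291438 lies between -3.03 and -2.49 in 3 of the 4-month samples and at 0.54 in the fourth.

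Thrombospondins 1 and 2, encoded by Thbs1 and Thbs2, form trimers that bind the receptor CD47 and curb blood vessel growth, and thrombospondin 1 also activates latent TGF-beta. Thbs1 was below the reference in every sample, at -2.77, -1.38, -1.04 and -0.88 at 1 month and at -1.81, -1.39, -1.38 and -0.48 at 4 months. The 1-month samples alone spanned more than the 4-month samples, with 1-month sample 1 lowest. The fitted difference was 0.27 ± 0.49 (SE; 95% interval -0.83 to 1.37; limma adjusted p = 0.795). Its sign turned to -0.088 without 1-month sample 1 and to -0.023 without 4-month sample 4, and the other samples left out in turn gave 0.29 to 0.50. The Thbs1 probe without shared values, A_52_P363951, read -2.65, -2.54, -1.01 and -0.84 and then -2.0, -2.88, -2.17 and -0.22, with a fitted difference of 0.03 ± 0.63. Thbs2 read -1.54, -0.92, -2.05 and -1.52 at 1 month and -1.04, -1.92, -1.18 and -0.56 at 4 months. Thbs2 was thus also below the reference in 8 of 8 samples, and its ages overlapped. Its fitted difference was 0.38 ± 0.38 (SE; 95% interval -0.46 to 1.23; adjusted p = 0.593). It moved to 0.16 without 1-month sample 3 and 0.15 without 4-month sample 4, to 0.58 without 1-month sample 2 and likewise without 4-month sample 2, and to 0.056 with the muscle covariate.

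Thbs3, Thbs4 and Comp encode the thrombospondins that form pentamers. They bind collagen and help to organise its fibres, and thrombospondin 4 and Comp are abundant in tendon, with thrombospondin 4 also found in muscle. Thbs3 read 1.94, 2.57, 1.35 and 1.80 at 1 month and 2.30, 2.61, 3.12 and 2.43 at 4 months. Of the 1-month samples, sample 2 alone reached into the range of the 4-month samples. The means were 1.91 ± 0.50 and 2.62 ± 0.36 (SD, n = 4 each), and the fitted difference was 0.67 ± 0.33 (SE; 95% interval -0.07 to 1.41; limma adjusted p = 0.255). With quantile normalization the Thbs3 difference was 0.25 (adjusted p = 0.75).

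Thbs4 had the largest fitted difference of the members and also the thinnest data. Probe A_52_P401504 read 5.55, 5.57, 4.68 and 4.84 at 1 month and 5.52, 7.08 and 6.97 in 4-month samples 1, 2 and 4. In 4-month sample 3 both Thbs4 probes were at 0, so the fit was made without that sample. In 2 of the 3 measured 4-month samples Thbs4 was above every 1-month sample, and in 4-month sample 1 it lay among them. The means were 5.16 ± 0.47 (SD, n = 4) and 6.52 ± 0.87 (SD, n = 3). The fitted difference was 1.36 ± 0.44 (SE; 95% interval 0.36 to 2.36), or 2.57-fold higher at 4 months, with an unadjusted p of 0.0136 and a limma adjusted p of 0.100. The paired arrays of 1-month sample 1 read 6.61 and 4.50 for this probe, and of those of 4-month sample 2 the first read 7.08 and the second was at 0. The second probe, A_51_P353221, read 4.11, 2.11 and 3.28 in 1-month samples 1, 2 and 4 and 5.99 and 4.41 in 4-month samples 1 and 4. These 5 samples were too few for the main test, and the highest value at 1 month, 4.11, lay close to the lowest at 4 months, 4.41. The 4.11 came from the second of the paired arrays of 1-month sample 1, and the first was at 0. When 2 measured samples per age were enough, both probes entered, and Thbs4 passed at 1.75 (adjusted p = 0.0265). The second probe's values in 1-month sample 3 and 4-month sample 2 then came from a fit of probe and sample. In that setting 877 of 14888 genes passed. With exact zeros kept as values the difference was 0.08.

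Of 20 skeletal muscle genes 5 rose at 4 months, against 7.25% of all genes called in either direction, among them Des (desmin, a muscle filament protein), which passed in 25 of 26 settings. The other 15 did not pass, and Ckm, the muscle creatine kinase gene, was the lowest at -0.08 (limma adjusted p = 0.960). The mean of the 20 genes was 3.69 to 5.24 at 1 month and 4.74 to 6.32 at 4 months, so the ages overlapped. With the mean of these genes as a covariate, the fitted difference of Thbs4 was 1.00 (adjusted p = 0.321), that of Thbs3 0.06 (adjusted p = 0.924), that of Sparcl1 0.25 (adjusted p = 0.821) and that of Postn -1.11 (adjusted p = 0.289). The covariate itself averaged 4.21 at 1 month and 5.34 at 4 months, so age and covariate cannot be told apart in this fit. With it 160 of 13501 genes passed, against 979 without it. Of 3 tendon genes measured 0 passed and 2 were at an unadjusted p under 0.05 in limma. These 2 moved in opposite directions, Scx at 0.89 (adjusted p = 0.201) and Mkx at -1.07 (adjusted p = 0.102). Mkx passed without 4-month sample 4 (-1.22, adjusted p = 0.0486), as did 16.9% of all genes. The mean of the 3 genes, in which such changes offset each other, was -1.64 to -0.54 at 1 month and -1.62 to -0.74 at 4 months.

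Comp, or cartilage oligomeric matrix protein, is known from cartilage and tendon and is made by fibroblasts in fibrotic skin. It read -0.25, 0.28, 0.29 and 0.24 at 1 month and 0.80, 0.96, 0.49 and -0.51 at 4 months, and every one of these was a shared value. In 3 of the 4-month samples it was above all 1-month samples and in 4-month sample 4 it was below them. Its fitted difference was 0.26 ± 0.37 (SE; 95% interval -0.56 to 1.07; limma adjusted p = 0.730). Leaving out 4-month sample 4 gave 0.61, and leaving out 1-month sample 1, 4-month sample 1 or 4-month sample 2 gave 0.095, 0.098 or 0.12. Of 5 cartilage and bone genes measured 0 passed, 1 was above 0 and 1 was at an unadjusted p under 0.05 in limma. Without 4-month sample 4, 2 of the 5 passed, both lower at 4 months, against 16.9% of all genes.

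Sparcl1 encodes hevin, a relative of SPARC that is anti-adhesive and is expressed in vessels and other tissues. It read 4.34, 4.77, 4.23 and 4.03 at 1 month and 5.48, 5.26, 5.24 and 3.82 at 4 months. In 3 of the 4-month samples it was above all 1-month samples, whereas 4-month sample 4 was the lowest of the 8. The means were 4.34 ± 0.31 and 4.95 ± 0.76 (SD, n = 4 each), and the fitted difference was 0.57 ± 0.40 (SE; 95% interval -0.32 to 1.46; limma adjusted p = 0.431). Leaving out 4-month sample 1 gave 0.35, and leaving out 4-month sample 4 gave 0.99. Both Sparcl1 probes gave a higher mean at 4 months, with fitted differences of 0.60 and 0.54. With quantile normalization these were 0.13 and 0.079, and that of the gene was 0.11 (adjusted p = 0.912). With the muscle covariate the probes were at 0.65 and, for A_52_P64356, at -0.16. Of 8 endothelial genes measured 8 had fitted differences above 0 (median 0.46) and 0 passed, with 2 at an unadjusted p under 0.05.

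**Figure D3:**
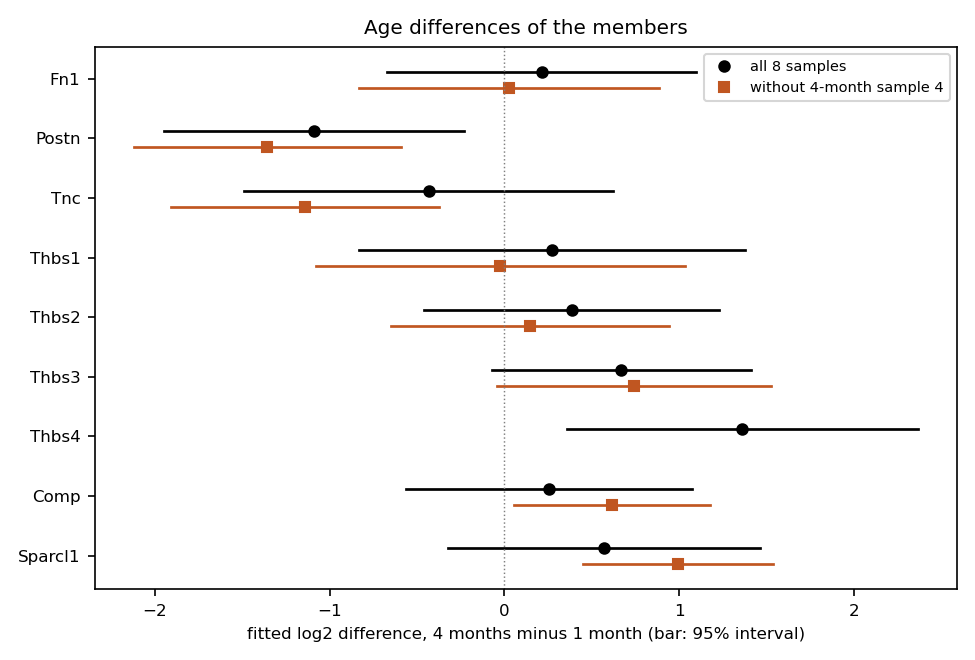
Fitted log2 difference, 4 months minus 1 month (horizontal axis), of each member with its 95% interval, from all 8 samples (black circles) and without 4-month sample 4 (orange squares). Leaving that sample out moved Postn from -1.09 to -1.36, Tnc from -0.43 to -1.14 and Sparcl1 from 0.57 to 0.99, and Thbs4 then had too few samples for a fit.

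Results for several members depended on 4-month sample 4. It was the highest 4-month sample for Fn1, Postn, Tnc, Thbs1 and Thbs2 and the lowest for Comp and Sparcl1. It fell inside the range of the 1-month samples in 1 of 8 members, Thbs3, against 48.7% of all genes. Without it, 2 of 8 tested members passed in limma, Postn at -1.36 ± 0.33 (SE; adjusted p = 0.0268) and Sparcl1 at 0.99 ± 0.24 (SE; adjusted p = 0.0245). Many more of all genes passed then too, 2172 of 12839 (16.9%). Tnc was at -1.14 ± 0.34 (SE; adjusted p = 0.0508). Of the member probes, A_51_P489192 of Postn, A_51_P210510 of Sparcl1 and A_51_P291438 of Tnc passed, against 14% of all probes. The choice to leave this sample out cannot be judged from these arrays, and leaving out each other sample in turn brought no member past the threshold.

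Without the shared values, Comp could not be tested and 0 of the 8 remaining members passed, against 10.7% of all genes. Tnc, then resting on A_51_P291438, was at -1.11 ± 0.83 (SE; adjusted p = 0.423) and Postn at -1.08 ± 0.39 (SE; adjusted p = 0.107). Without the shared values and 4-month sample 4 together, 3 of 7 members passed, against 23.6% of all genes. These were Postn at -1.35 (adjusted p = 0.0210), Tnc at -2.06 (adjusted p = 0.0131) and Sparcl1 at 0.99 (adjusted p = 0.0169). Both settings were chosen after the values had been seen.

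Of 20 receptor genes tested 1 passed, a share no higher than the 7.25% of all genes, and 3 were at an unadjusted p under 0.05, against 24.3%. Of 11 tested integrin genes, whose products bind fibronectin, periostin, tenascin-C and osteopontin, 0 passed and 2 were at an unadjusted p under 0.05 in limma, with a median difference of 0.19. Itgb6, an epithelial integrin subunit that binds fibronectin and latent TGF-beta, was the highest at 1.02 (adjusted p = 0.166), and Itga8 was the lowest at -0.83 (adjusted p = 0.379). Of 9 other receptors 1 passed: Cacna2d1, a calcium channel subunit whose product is a thrombospondin receptor in nerve and is abundant in skeletal muscle, rose by 2.23 ± 0.56 (SE; adjusted p = 0.0428). Cacna2d1 read 1.35, 0.29, 0.03 and 0.82 at 1 month and 2.82, 4.04, 3.33 and 1.61 at 4 months. Every 4-month sample was above every 1-month sample, and the call held in 15 of 26 settings and not with the muscle genes as a covariate (2.31, adjusted p = 0.144). Leaving out 1-month sample 1 or 2, or any of 4-month samples 1 to 3, put its adjusted p at 0.0798 to 0.0987. Sdc1 (syndecan 1) was the lowest of these receptors at -0.82 (adjusted p = 0.480). Cd44, a receptor for hyaluronan and osteopontin, read 0.79, 0.47, 0.57 and 0.48 at 1 month and -0.96, -0.57, -0.53 and 1.28 at 4 months. As for Tnc, 4-month sample 4 was above all 1-month samples and the other 4-month samples below them. Without that sample 2 of the 9 other receptors passed in limma, against 16.9% of all genes. These were Cd44 at -1.34 (adjusted p = 0.00527) and Cacna2d1 at 2.74 (adjusted p = 0.00489), whereas 0 of 10 integrin genes then tested passed.

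Of 16 other matricellular genes tested 0 passed and 5 were at an unadjusted p under 0.05 in limma, with a median of 0.24. The ends were Ccn5 at 1.20 (adjusted p = 0.158) and Ccn4 at -1.33 (adjusted p = 0.106), both of the CCN family of secreted regulators. Among 11 genes of matrix assembly 1 passed: Tgm2, the transglutaminase that cross-links fibronectin and other matrix proteins, rose by 1.87 ± 0.28 (SE; adjusted p = 0.00879). It read 0.08, -0.32, -0.08 and 0.34 at 1 month and 2.34, 1.52, 1.57 and 1.94 at 4 months, so that all 4-month samples lay above all 1-month samples. Tgm2 passed in 25 of 26 settings. The median of these 11 genes was -0.60, and their lowest was Col1a2, a chain of type I collagen, at -1.65 (adjusted p = 0.0984). Without 4-month sample 4, 3 of these 11 genes passed, against 16.9% of all genes. Beside Tgm2, Col1a2 passed at -1.83 (adjusted p = 0.0484) and Lox, the collagen cross-linking oxidase, at -1.64 (adjusted p = 0.0326).

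Of 18 genes of TGF-beta signalling, which drives the expression of fibronectin, periostin, tenascin-C and Comp in fibroblasts, 1 passed. This was Tgfb3, a TGF-beta ligand, which rose by 1.39 ± 0.32 (SE; limma adjusted p = 0.0347). It read -1.21, -0.56, -1.16 and -0.89 at 1 month and 0.69, 0.90, 0.57 and -0.25 at 4 months, with no overlap of the ages. The call held in 18 of 26 settings, and among the settings without it were those without 1-month sample 1 (adjusted p = 0.145), without 4-month sample 1 (0.0844), 2 (0.0734) or 3 (0.0736), and with the muscle genes as a covariate (0.178). The lowest gene of this list was Smad7, an inhibitor of the pathway, at -0.94 (adjusted p = 0.168), and the list's median was 0.04. At an unadjusted p under 0.05 there were 5 of the 18. Without 4-month sample 4, 3 of 18 passed, against 16.9% of all genes. These were Tgfb3 at 1.67 (adjusted p = 0.00402), Tgfb2 at 1.56 (adjusted p = 0.0389) and Smad3 at 1.02 (adjusted p = 0.0270).

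Among markers of other skin cell types, calls were made in the lists of the growing hair follicle and of cell division. The part of any such list in the members' values was not tested beyond the muscle covariate. Of 9 fibroblast genes 0 passed (median -0.60, 2 at an unadjusted p under 0.05). Of 9 macrophage genes 0 passed and 4 were at an unadjusted p under 0.05, with a median of 0.96, and the mean of the 6 measured in every sample was -0.38 to 0.50 at 1 month and 0.52 to 1.40 at 4 months. Of 7 growing hair follicle genes 4 fell (Lef1, Hoxc13, Shh and Bmp4), and of 9 cell division genes 8 fell, with means of -1.03 to -0.53 at 1 month and -3.16 to -2.02 at 4 months. Lef1, a regulator of follicle growth, passed in 25 of 26 settings, whereas Hoxc13, Shh and Bmp4 each lost the call without 1-month sample 1, without 4-month sample 2 and without 4-month sample 3, among other settings. Over the called genes, the call held in 13 to 25 settings for cell division and in 11 to 25 for muscle. No gene passed among 7 epidermal, 4 Schwann cell, 5 smooth muscle, 4 platelet and 3 B cell genes in limma, where 0, 1, 3, 1 and 0 were at an unadjusted p under 0.05.

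**Figure D4:**
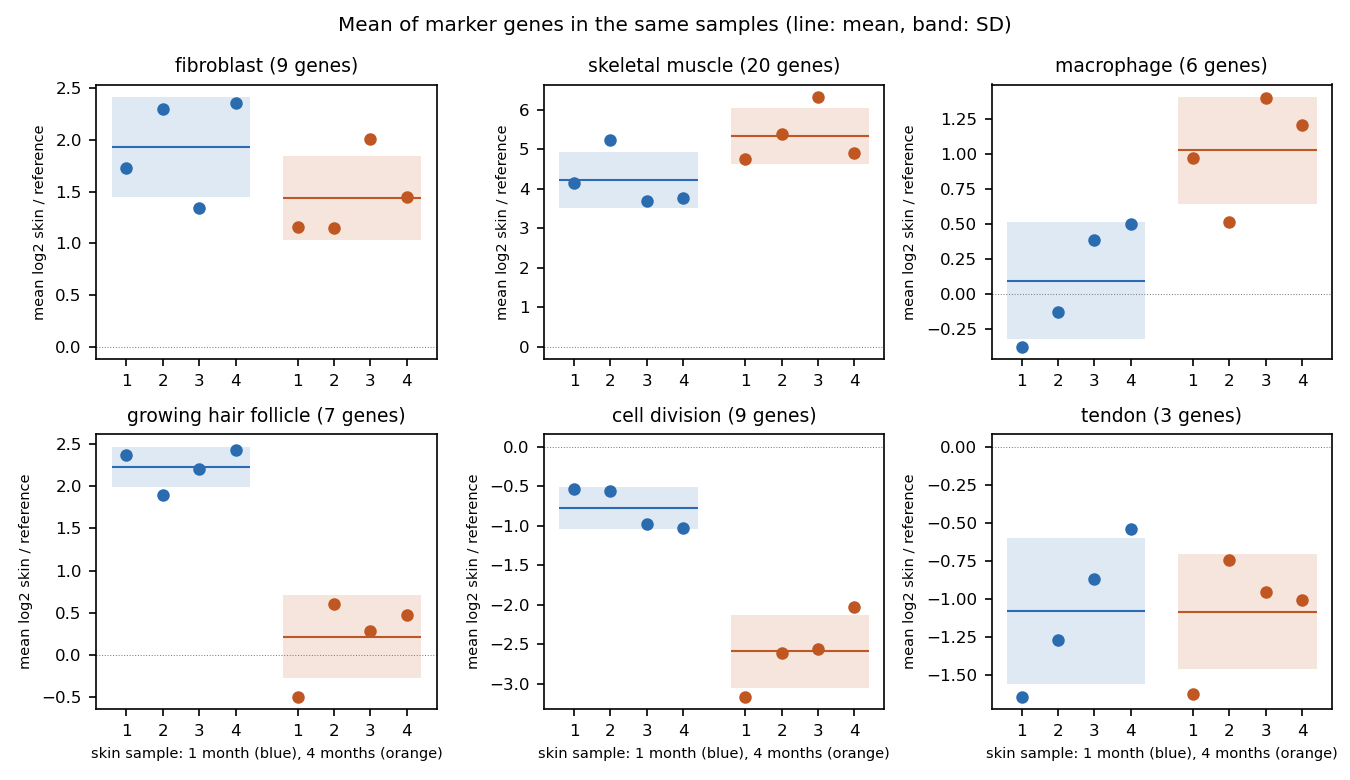
Mean log2 ratio of skin over reference (vertical axis, its own range in each panel) over the genes of 6 marker lists measured in every sample, in 4 skin samples at 1 month (blue) and 4 at 4 months (orange), with the mean as a line and the SD as a band. The ages are separate for the growing hair follicle, cell division and macrophage genes and overlap for the fibroblast, skeletal muscle and tendon genes.

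Across the 8 samples the members moved together in some pairs. Fn1 and Thbs1 were the pair most alike, with Pearson's r = 0.917 and Spearman's rho = 0.857, given as a description over 8 points that share arrays and a reference. The value of r was 0.619 without 1-month sample 1 and 4-month sample 4, and 0.678 over all 8 samples with probes measured on all 10 arrays. In the latter, Thbs1 rested on A_52_P363951 alone, a probe without shared values, and Fn1 was without A_52_P299974. Sparcl1 and Tnc were the pair most opposed, with r = -0.898 and rho = -0.952, with r = -0.856 without 4-month samples 1 and 4 and -0.884 with probes measured on all 10 arrays. Tnc then still included A_52_P278035, all of whose values were shared. Of the 12397 genes measured in every sample, those most like Postn were Myh10 (r = 0.981), a non-muscle myosin heavy chain gene, and Zcchc3 (r = 0.976). The genes most like Fn1 were Pcbp1 (r = 0.963) and Olfr22-ps1 (r = 0.962), those most like Tnc were Ankrd27 (r = 0.992) and Gak (r = 0.980), and those most like Sparcl1 were 1700030K09Rik (r = 0.991) and Dock4 (r = 0.977). For Thbs1 they were 2310022B05Rik (r = 0.976) and Gpr176 (r = 0.971), for Thbs2 Arhgap8 (r = 0.935) and Htra1 (r = 0.934), for Thbs3 Bbc3 (r = 0.975) and Lce1b (r = 0.975), and for Comp Timm21 (r = 0.965) and Hepacam2 (r = 0.950). All values of Comp were shared values, as were all or most values of 2 of the 3 averaged probes of Tnc and of Thbs1. The part of shared values in these correlations was not tested. These genes are the 2 highest of 12397 for each member over 8 samples. A high r follows from such a search alone and shows no link between the genes. With the mean of each age taken off, r of these same pairs ran from 0.925 (Arhgap8 with Thbs2) to 0.993 (Ankrd27 with Tnc), and was 0.973 for Myh10 with Postn.

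The spread between samples differed among members as well. At 1 month the SD ran from 0.26 for Comp to 0.86 for Thbs1, against a median of 0.34 over all genes, and at 4 months from 0.36 for Thbs3 to 0.91 for Tnc, against 0.38. The SD of Thbs1 at 1 month exceeded that of 93.9% of all genes, and the SD of Tnc at 4 months that of 93.0%. In 8 of 9 members the 4-month SD was above the median of all genes, Thbs3 being the exception. The 1-month SD was likewise above its median in all members but Comp and Sparcl1, so this is not particular to 4 months. For Tnc and Sparcl1 the 4-month SD includes 4-month sample 4, which lay apart from the others.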

How the data were processed

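2-colour arrays of skin RNA against a reference RNA were analysed, 10 arrays of 8 samples, 4 per age. Per the labels, RNA was isolated with a Qiagen kit for fibrous tissue, and 200 ng was labelled with the Agilent Quick-Amp kit. The authors deposited log ratios, taken as log2, for 41174 probes. How the scans were read, background-corrected and normalised is not stated in these sources, and the effect on the values is not known. Each array had 21665 to 30425 measured probes, and the number of arrays limits the precision.

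The sign was turned, exact zeros and 160 empty cells were treated as missing, and no further normalization was applied. Array medians were then -0.066 to 0.125. Probes were named from GEO's platform annotation, in which 32664 have 1 gene symbol, 45 several and 8465 none. Probes of a gene were averaged after a fit of probe and sample for missing values, and genes and probes needed values in at least 3 samples per age. The ages were compared with limma 3.58.1 (lmFit, eBayes) in R 4.3.3, with the ID number as a random block (duplicateCorrelation, consensus correlation 0.313 for genes), Benjamini-Hochberg adjustment and a threshold of 0.05. The scripts were tested on simulated data. The members and gene lists were chosen with earlier results of these data known. All 10 members are described. From the 18 lists, the genes named are those past the threshold, the highest and lowest of the lists of receptors, matrix genes, TGF-beta signalling and tendon, and the lowest muscle gene. For each member measured in every sample the 2 genes most correlated with it are also named. Cd44, Lox, Tgfb2 and Smad3, and the gene pairs, were chosen after their values were seen. Alternatives covered the zeros, normalization and centring, the filter, repeat arrays, probe averaging, the block, covariates, the test and each sample left out.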

Additional observations from a re-analysis of the deposited data

Results flagged for a closer look

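Samples were looked at again where the highest or lowest of a group of 4 lay far from the rest, by Dixon's criterion at 95%, which chance meets in about 1 in 20 groups. Genes and single probes were looked at for both ages, so chance may have met some of the groups listed. A gene and its own probe, as for Tnc, are not separate observations. Tnc was at 0.57 in 4-month sample 4 against -1.43 to -1.09 in the other 4-month samples, and its probe A_51_P291438 at 0.54 against -3.03 to -2.49. Sparcl1 was at 3.82 in the same sample against 5.24 to 5.48. Comp was at -0.25 in 1-month sample 1, a shared value, against 0.24 to 0.29. Fn1 probe A_52_P299974 was at -4.02 in 1-month sample 1 against -1.89 to -1.72, and was measured there on 1 of 2 arrays. Sparcl1 probe A_52_P64356 was at 5.14 in 1-month sample 2 against 4.05 to 4.20, and Thbs1 probe A_52_P337092, a probe mostly of shared values, was at -1.58 in 4-month sample 1 against -0.51 to -0.39. The causes of these values were not tested.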

How the results depend on the processing

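Of 215 differences of members under 25 alternatives, 199 kept their direction and their side of the threshold, 8 passed it and 8 changed sign, and the causes were not tested. The sign changes were Fn1 with 1 probe per gene (-0.093), without 1-month sample 1 (-0.053, with -0.053 to 0.405 when each sample was left out) and with the muscle covariate (-0.20), Tnc with 1 probe per gene (0.27), Thbs1 without 1-month sample 1 (-0.088), without 4-month sample 4 (-0.023, with -0.088 to 0.498 when each sample was left out) and without shared values and that sample (-0.56), and Comp with the second array of the repeated samples (-0.011). Bub1, a cell division gene, changed sign with 1 probe per gene (0.24). Members called were 1 with quantile normalization (Postn, -1.62, adjusted p = 0.0495), 1 with 2 measured samples per age (Thbs4), 1 with no ID-number block (Postn, -1.14, adjusted p = 0.0447), 0 to 2 when each sample was left out and 3 without shared values and 4-month sample 4. Genes called went from 979 to 157 to 2172 when each sample was left out (157 for 1-month sample 1, and 473, 504, 496 and 2172 for 4-month samples 1, 2, 3 and 4), to 2022 with no ID-number block, 160 with the muscle covariate, 581 with the ID suffix as a covariate, 2291 without shared values and 4-month sample 4, and 0 with means per ID number, where 2530 were at an unadjusted p under 0.05 in limma. Probes called went from 1297 to 768 with zeros kept, 86 to 3176 when each sample was left out, 2743 with no ID-number block, 2 with the muscle covariate, 780 with the ID suffix, 3176 without shared values and 4-month sample 4, and 0 with means per ID number (4221 at an unadjusted p under 0.05 in limma). Of 234 differences of the 11 tested probes of members with several, 27 changed sign, in 7 probes. No paired analysis was possible because no ID number occurs at both ages.

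With 4 samples per age, shared values and exact zeros limit Comp, Thbs1, Tnc and Thbs4 most. The deposited ratios give no signal over background, so dim probes could not be told from bright ones. Ratios against a reference RNA also carry the expression in that reference.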
